A study of Mus musculus with 6 samples.

Results

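10 genes at the core of the mouse pluripotency network were followed from the oocyte to the 4-cell embryo in libraries labelled YAP-null or wild type. They are Pou5f1, Nanog, Sox2, Sall4, Esrrb, Tfcp2l1, Nr5a2, Zfp42, Tdgf1 and Prdm14, chosen by symbol for their known role, and all 10 were present among the 23308 symbols of the deposited tables, each at 1 locus. The mRNA fraction was sequenced from germinal vesicle (GV) oocytes, which are fully grown and arrested before meiotic maturation, and from embryos at the 4-cell stage. The GV stage gave 2 YAP-null and 2 wild-type libraries and the 4-cell stage 1 library of each genotype, each from 60 oocytes or embryos. All groups share the ICR background and came from females aged 21 to 23 days that received PMSG/hCG, and those giving embryos were mated. YAP-null oocytes and embryos are labelled YAP-/- and Yap1-deleted and came from YAP-/- females, while the wild-type groups came from WT females. Which cells of the female lost Yap1, how it was deleted and the fathers' genotype are not stated in the labels. The labels' source field names GV oocytes also for the 4-cell samples, whose titles and stage fields say 4-cell; the titles were followed. Nothing in the labels says whether libraries of a group came from separate animals, so p-values measure only the spread between these libraries.

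Pluripotency is the capacity of early embryonic cells to form all lineages of the fetus. In the embryo and in embryonic stem cells it depends on a circuit of transcription factors that bind the regulatory regions of each other's genes. OCT4, the product of Pou5f1, and SOX2 bind DNA side by side at a composite octamer-Sox element, with NANOG as their partner, and SALL4, ESRRB, TFCP2L1, NR5A2 and PRDM14 act as ancillary regulators. Oocytes store some of these transcripts, and others first appear when the embryo's own genome is switched on. YAP, the coactivator that the Hippo pathway restrains, has no DNA-binding domain of its own and acts through TEAD factors. The question posed in the study's title is whether oocyte YAP activates the genes of the early zygote.

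The promoters of 4 members are shown because their transcripts mark the range of behaviours below, and that of Nanog because it carries the circuit's own element. RefSeq start sites (GRCm38.p6) were at hand for 8 of the 10 members, all except Sall4 and Prdm14, and each run is the 250 bases before the start, 5′ to 3′. Capitals mark GGAATG or its reverse complement CATTCC (the core of the TEAD motif), ATTTGCAT or ATGCAAAT (the octamer) and an octamer-Sox composite (TTTGCAT, any base, then ACAATG). Both strands were searched, and the composite holds all but the first letter of the octamer. The composite was added after the sequences had been seen.
Tdgf1 (chr9:110946159-110946408, minus strand): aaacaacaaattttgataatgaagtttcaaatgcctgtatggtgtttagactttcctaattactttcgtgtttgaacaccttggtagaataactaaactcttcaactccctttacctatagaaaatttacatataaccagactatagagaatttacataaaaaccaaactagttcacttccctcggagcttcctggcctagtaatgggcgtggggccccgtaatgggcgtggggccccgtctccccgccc
Nr5a2, second start site (chr1:136953631-136953880, minus strand): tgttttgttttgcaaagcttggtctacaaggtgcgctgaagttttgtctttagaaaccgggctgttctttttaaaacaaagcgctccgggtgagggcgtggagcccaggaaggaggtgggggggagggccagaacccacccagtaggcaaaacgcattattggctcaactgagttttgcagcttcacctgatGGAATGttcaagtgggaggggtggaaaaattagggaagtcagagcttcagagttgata
Zfp42 (chr8:43307010-43307259, minus strand): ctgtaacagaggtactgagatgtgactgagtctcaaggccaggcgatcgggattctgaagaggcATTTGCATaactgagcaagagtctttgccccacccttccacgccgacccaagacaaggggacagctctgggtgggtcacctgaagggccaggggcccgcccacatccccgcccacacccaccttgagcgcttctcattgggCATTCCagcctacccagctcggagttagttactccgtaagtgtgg
Nanog, second start site (chr6:122707315-122707564, plus strand): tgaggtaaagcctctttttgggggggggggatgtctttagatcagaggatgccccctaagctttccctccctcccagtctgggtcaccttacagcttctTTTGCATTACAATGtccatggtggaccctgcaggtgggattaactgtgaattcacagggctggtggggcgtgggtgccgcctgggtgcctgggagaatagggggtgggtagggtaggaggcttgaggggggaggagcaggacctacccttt
Pou5f1, first start site (chr17:35505782-35506031, plus strand): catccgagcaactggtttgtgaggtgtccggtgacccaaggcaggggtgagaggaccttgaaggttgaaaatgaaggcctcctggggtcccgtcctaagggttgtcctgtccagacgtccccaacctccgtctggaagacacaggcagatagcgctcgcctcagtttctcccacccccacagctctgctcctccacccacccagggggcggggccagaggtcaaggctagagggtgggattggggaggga
The TEAD core was found before 1 of the 2 Nr5a2 start sites and before the Zfp42 start site, so in 2 of the 12 windows of the 8 members. It occurred in 12.6% of all 32851 promoter windows of that length. The octamer letters were found for 1 member, Zfp42, and in 526 of all windows. Among the members the composite was found for Nanog alone, before both of its start sites, whose windows overlap. These were the only 2 of all windows that hold it, and they share 1 site. As its letters were chosen after the sequences had been seen, this rarity carries no weight. These matches describe letters in a window and show no binding.

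The number of mapped fragments is unknown. In YAP-null GV library 1 a single symbol, Mir762, made up 19.1% of the FPKM sum, against at most 1.53% for the top symbol of any other library. Relative depth, estimated from the deposited bounds of 1871 genes with wild-type GV library 1 set to 1, was between 0.368 and 0.447 in the other GV libraries, 0.808 in the YAP-null and 0.975 in the wild-type 4-cell library. As a check of the labels, Yap1 stood at 10.8 and 10.04 FPKM in the YAP-null oocyte libraries, against 248.0 and 153.5 FPKM in wild type. In embryos it stood at 33.3 FPKM (YAP-null) and 89.7 FPKM (wild type). The YAP-null 4-cell library thus held 37.2% of the wild-type Yap1 level. FPKM is the fragment number scaled by transcript length and by mapped fragments, so levels of different genes can be compared. Changes are given as differences of log2(FPKM + 1), a scale that understates the change of genes at low FPKM. In bulk RNA, fewer cells that express a gene and less RNA per cell cannot be told apart.

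The members fell into 3 kinds by their level in oocytes. Pou5f1, Sall4, Esrrb and Nr5a2 were present in every oocyte library, at 8.30 FPKM or more. Sox2, Tfcp2l1 and Zfp42 lay between 0.497 and 1.76 FPKM there. Nanog, Tdgf1 and Prdm14 were listed at 0 in most or all oocyte libraries: Nanog reached 0.215 FPKM in YAP-null GV library 2, Tdgf1 reached 0.642 FPKM in wild-type GV library 1, and Prdm14 was listed at 0 in all 4. The deposited status of each of these zeros was OK, which does not show that the transcript was absent. No mean FPKM is given for these members, but the zeros entered the tests and differences below as values.

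**Figure D1:**
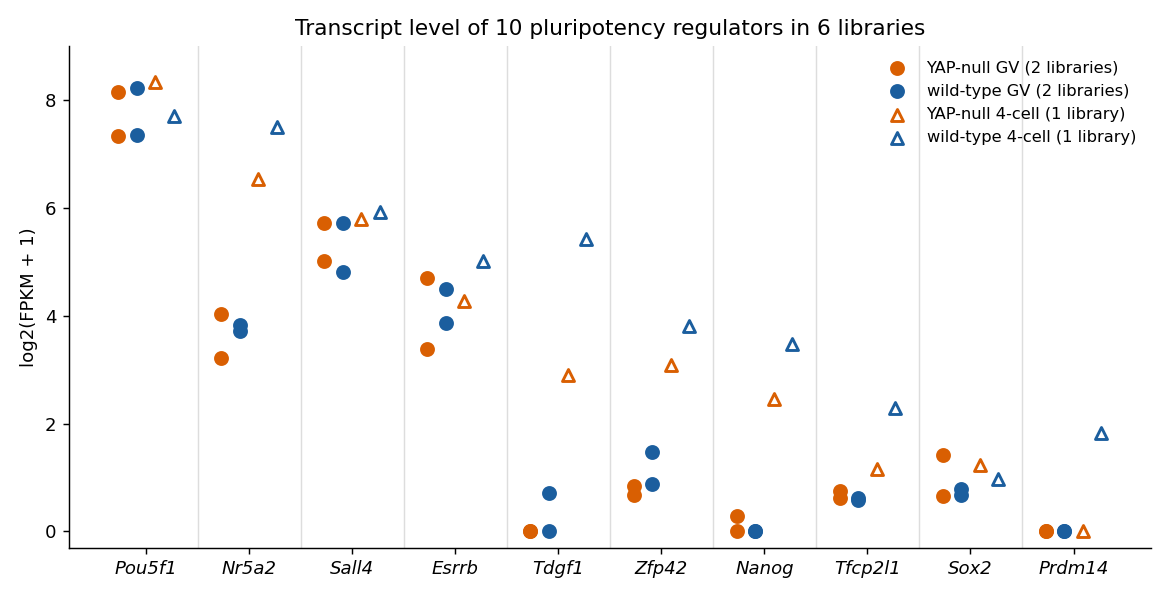
Level of each member on the log2(FPKM + 1) scale (vertical axis), with members ordered along the horizontal axis by their mean FPKM over 6 libraries. Filled circles are GV libraries (2 per genotype), open triangles 4-cell libraries (1 per genotype), orange YAP-null and blue wild type. Pou5f1 lies highest throughout, and the wild-type triangle lies above the YAP-null triangle for all members except Pou5f1 and Sox2.

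Among oocytes, none of the 4 abundant members passed the test between genotypes. Pou5f1 (chromosome 17, 35642977 to 35647722, mm9), which encodes the POU homeodomain factor OCT4, gave 282.7 and 160.7 FPKM for YAP-null libraries 1 and 2, against 298.3 and 161.4 FPKM for wild-type libraries 1 and 2. The genotypes overlap, and the libraries numbered 1 are the high ones in both. Group means were 221.7 ± 86.3 FPKM for YAP-null against 229.8 ± 96.8 FPKM for wild type (SD, n = 2 each), a log2 difference of -0.042 ± 0.51 (SE). Sall4 (chromosome 2, 168573832 to 168592701), a zinc finger factor that partners OCT4, gave 31.4 and 51.4 FPKM for YAP-null, then 27.2 and 51.8 FPKM for wild type. Its high libraries were those numbered 2, the reverse of Pou5f1. Esrrb (chromosome 12, 87702067 to 87862578), an orphan nuclear receptor, gave 9.42 and 25.1 FPKM (YAP-null) against 13.6 and 21.4 FPKM (wild type), and the genotypes overlap. Nr5a2 (chromosome 1, 138740161 to 138857025), the orphan receptor LRH-1, gave 8.30 and 15.4 FPKM (YAP-null), one below and one above the 12.1 and 13.2 FPKM of wild type. The log2 differences were 0.095 ± 0.49 for Sall4, -0.13 ± 0.58 for Esrrb and -0.14 ± 0.43 for Nr5a2.

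In the limma test of GV oocytes these 4 members, the ones with a mean of at least 1 FPKM, each had an adjusted p of 1.00. Of 10462 genes tested, 0 passed (0%) and 22 had an unadjusted p under 0.05 (0.21%), none of them a member, and Yap1 itself did not pass. That share is far below what the threshold allows, and even the gene labelled as deleted was not called. The test could thus hardly detect a difference, and its result does not show equal levels. Among the low members, Zfp42 (chromosome 8, 44380421 to 44392363), which encodes the zinc finger protein REX1, gave 0.600 and 0.784 FPKM (YAP-null) against 1.76 and 0.838 FPKM (wild type). These groups do not overlap, as for 10.8% of tested genes, but the deposited bounds of YAP-null library 2 (0.143 to 1.29 FPKM) and wild-type library 2 (0.152 to 1.52 FPKM) do. Sox2 (chromosome 3, 34548927 to 34551382), which encodes the HMG-box partner of OCT4, gave 0.571 and 1.68 FPKM (YAP-null) against 0.719 and 0.599 FPKM (wild type), with overlap. It lies within the locus of Sox2ot, which was at 0.293 FPKM or less in every library, and the strand of the counting is not given. Tfcp2l1 (chromosome 1, 120524522 to 120581745), a grainyhead-like factor of naive stem cells, gave 0.684 and 0.537 FPKM (YAP-null) against 0.497 and 0.543 FPKM (wild type), again with overlap. Granulosa cells, which surround the oocyte, also express Nr5a2. Of 13 granulosa and cumulus markers, all in the tables, the summed level came to 33.7 and 30.0 FPKM (YAP-null) against 34.4 and 39.5 FPKM (wild type). Most of that sum came from Cyp19a1 (aromatase), at 9.51 to 13.6 FPKM over the 4 oocyte libraries, and Inha (inhibin alpha), at 6.12 to 15.6 FPKM, levels like those of Nr5a2. Inha gave 11.6 and 6.12 FPKM (YAP-null) against 14.6 and 15.6 FPKM (wild type), and the steroid enzyme gene Hsd3b1 0 and 0.608 FPKM against 1.89 and 2.28 FPKM. Neither passed limma (adjusted p = 1.00 for both). Foxl2 lay at 0.466 to 0.981 FPKM and Ptx3 was listed at 0. Their part in the oocyte level of Nr5a2 was not tested.

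For Pou5f1, Sall4 and Esrrb the libraries of a genotype lay further apart by number than the genotype means did. Pou5f1 was 1.76-fold higher in YAP-null library 1 than in library 2 and 1.85-fold higher in wild-type library 1 than in library 2. Sall4 was 1.64-fold and 1.91-fold higher in the libraries numbered 2, and Esrrb 2.67-fold and 1.58-fold. For Nr5a2 the ratios of library 2 to library 1 were 1.85 and 1.09. On the log2 scale the genotype difference within the libraries numbered 1 and 2 was -0.077 and -0.0059 for Pou5f1, 0.20 and -0.013 for Sall4, -0.48 and 0.22 for Esrrb and -0.49 and 0.21 for Nr5a2. Esrrb and Nr5a2 were thus lower in YAP-null by value in one pair and higher in the other. Of the 4 members tested, 3 differed 1.5-fold or more between the numbers, with the same sign in both genotypes, as did 36.3% of all tested genes. The labels do not say what the numbers stand for.

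**Figure D2:**
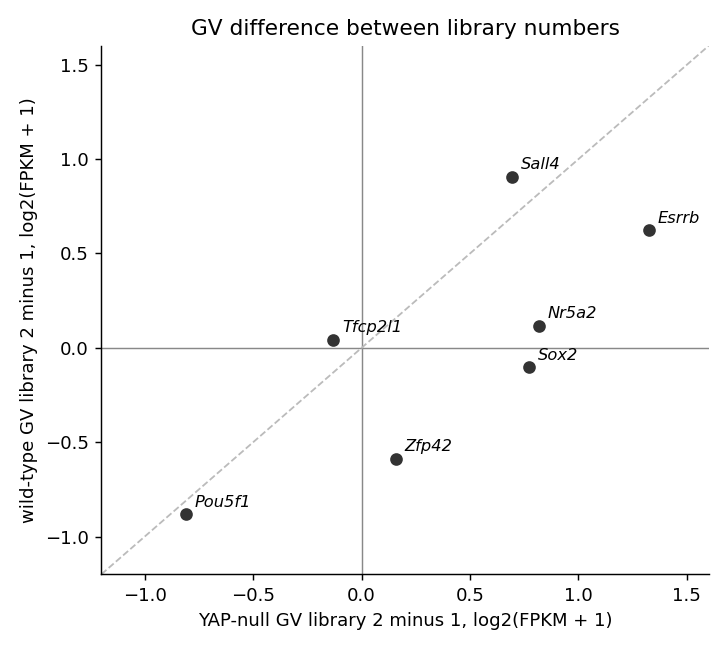
Difference between the GV libraries numbered 2 and 1 on the log2(FPKM + 1) scale, in YAP-null (horizontal axis) and wild-type oocytes (vertical axis), for the 7 members above 0 in all 4 GV libraries; the dashed line marks equal differences. Pou5f1 lies at -0.81 and -0.88, Sall4 at 0.69 and 0.91 and Esrrb at 1.33 and 0.62, so that these members shift with the library number in both genotypes.

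Between the oocyte and the 4-cell embryo 5 members rose. Nr5a2 was among them, while Pou5f1, Sall4 and Esrrb, the other members abundant in oocytes, did not pass the test. The stage test used limma on all 6 libraries with genotype as a term, and 28.2% of 11451 genes were called higher at the 4-cell stage (30.9% at an unadjusted p under 0.05). Both 4-cell libraries lay above all 4 oocyte libraries for 6 of the 8 members tested, the 5 that rose and Sall4, and for 35.1% of the 11451 genes. Nr5a2 rose by 3.32 ± 0.39 (SE) on the log2 scale (limma adjusted p = 0.000879), reaching 92.1 FPKM (YAP-null) and 178.9 FPKM (wild type) in embryos. Against the mean of the GV libraries of its own genotype it was 7.77-fold and 14.1-fold higher. Tdgf1 (chromosome 9, 110842112 to 110848662), which encodes the Nodal co-receptor CRIPTO, rose by 3.98 ± 0.52 (adjusted p = 0.00138), to 6.48 and 41.8 FPKM. Nanog (chromosome 6, 122657586 to 122663796), the homeodomain factor that sustains self-renewal, rose by 2.89 ± 0.32 (adjusted p = 0.000767), to 4.49 and 10.1 FPKM. Zfp42 rose by 2.48 ± 0.31 (adjusted p = 0.0011), to 7.46 and 13.0 FPKM.

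Tfcp2l1 rose by 1.08 ± 0.33 (limma adjusted p = 0.029), to 1.24 and 3.90 FPKM, and this call was the least secure. It was lost without YAP-null GV library 2 (adjusted p = 0.0508), without wild-type GV library 1 (0.0775) or 2 (0.0714) and with quantile normalization (0.0613). Nanog, Tfcp2l1 and Zfp42 had means under 1 FPKM over the 4 oocyte libraries, as had Tdgf1, and entered the test through their 4-cell values. With no filter on low values, so that all 10 members were tested, the same 5 members passed, against 21.2% of 17558 genes called higher in that fit. Without the wild-type 4-cell library 3 members passed, Nr5a2, Zfp42 and Tdgf1, since Nanog and Tfcp2l1 then fell below the filter.

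The other 5 members did not pass. Pou5f1 differed by 0.25 ± 0.47 (limma adjusted p = 0.669), with the wild-type 4-cell library, at 206.8 FPKM, inside the oocyte range and the YAP-null one, at 322.1 FPKM, above it. Sall4 differed by 0.54 ± 0.41 (adjusted p = 0.295): its 4-cell values, 54.2 and 59.4 FPKM, lay just above the highest oocyte library. Esrrb differed by 0.53 ± 0.47 (adjusted p = 0.37), at 18.3 and 31.3 FPKM, and the YAP-null value falls among the oocyte values. Sox2 stayed low at 1.36 and 0.968 FPKM, and with no filter its difference was 0.22 ± 0.27 (adjusted p = 0.55). Prdm14 (chromosome 1, 13103509 to 13117244), a PR-domain factor that represses differentiation genes, was above 0 in 1 library of 6, the wild-type 4-cell library, at 2.57 FPKM (deposited bounds 1.86 to 3.24). With no filter its difference was 0.92 ± 0.40 (adjusted p = 0.134). The order of levels changed with the stage: in wild type Nr5a2 ranked 4687 and 4946 among all symbols in oocytes and 457 at the 4-cell stage, while Pou5f1 ranked 174 and 366 in oocytes and 372 at the 4-cell stage.

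Each genotype's own change from oocyte to 4-cell embryo is given as a value, without a test, since each rests on 1 embryo library. Tdgf1 changed most by value in wild type, by 5.06 on the log2 scale against 2.90 in YAP-null. The changes of Nanog were 3.47 and 2.32, of Nr5a2 3.72 and 2.91, of Zfp42 2.64 and 2.33 and of Tfcp2l1 1.69 and 0.48 (wild type first). Zfp42 was therefore the riser with the most similar values in both genotypes. For Esrrb they were 0.84 and 0.23, and for Sall4 0.65 and 0.42. The sign for Pou5f1 was mixed, -0.085 in wild type and 0.59 in YAP-null, and against single oocyte libraries it ran from -0.53 to 0.36 in wild type and from 0.19 to 1.00 in YAP-null. These changes share their 4-cell libraries with the comparison that follows, and the difference between genotypes in the change was not tested.

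**Figure D3:**
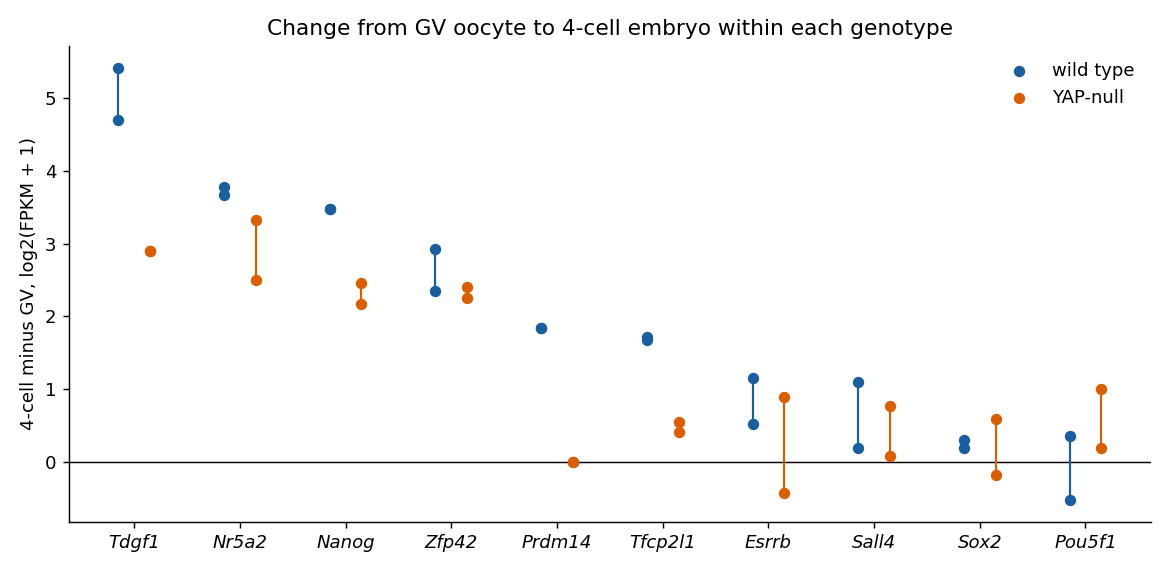
Difference between the 4-cell library and each of the 2 GV libraries of the same genotype on the log2(FPKM + 1) scale (vertical axis), with a line joining the points of one genotype, blue for wild type and orange for YAP-null. Members are ordered by their wild-type change; the points of the genotypes lie apart for Tdgf1, Nr5a2, Nanog, Prdm14 and Tfcp2l1 and overlap in range for Zfp42, Esrrb, Sall4, Sox2 and Pou5f1.

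At the 4-cell stage most members were lower by value in the YAP-null library, and Pou5f1 was not. With 1 library per genotype the differences have no replicate check and no test was made. The deposited bounds, whose confidence level is not given, cover counting and assignment error in a library and not the spread between embryo samples. By value 8 of 10 members were lower in YAP-null, against 47.8% of the 10854 genes averaging 1 FPKM or more, and the median difference of the members was -0.85, against 0.051 for those genes. Those genes include ones of the oocyte, and all 10 oocyte markers were higher in the YAP-null library. No share was computed for genes that rise by the 4-cell stage, so the lower values are not shown to be particular to the members. A difference of at least 2-fold on the log2(FPKM + 1) scale was reached by 4 members in the lower direction (9.97% of all genes) and by 0 in the higher direction (17.7%, and 27.7% in either). Prdm14 passed the minimum through the wild-type library alone. The bounds of the 2 libraries did not overlap for 7 members that were lower (28.3% of 9720 genes) and 1 that was higher (36.2%, and 64.5% in either direction). Among the 7 was Prdm14, whose YAP-null bounds were both listed at 0. Such bounds cannot overlap bounds above 0, so its place in this count carries no weight.

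The co-receptor gene Tdgf1 lay furthest apart. YAP-null embryos gave 6.48 FPKM (bounds 4.87 to 7.999) against 41.8 FPKM (35.6 to 43.7) for wild type, which is 15.5% of the wild-type level and a log2 difference of -2.52. Prdm14 was listed at 0 in YAP-null, bounds included, and at 2.57 FPKM in wild type, so no fold is given. Its log2 difference of -1.83 has a size set by the pseudocount. Tfcp2l1 was at 1.24 FPKM (0.984 to 1.497) and 3.90 FPKM (3.46 to 4.33), 31.9% of wild type (log2 difference -1.13). Nanog was at 4.49 FPKM (2.94 to 6.06) and 10.1 FPKM (7.42 to 11.8), 44.5% of wild type (-1.02).

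Nr5a2 lay just inside the 2-fold rule, with 92.1 FPKM (bounds 87.7 to 97.0) against 178.9 FPKM (174.7 to 186.4), 51.5% of wild type and a log2 difference of -0.95. With median-ratio scaling the difference was -1.15, past the rule. Both libraries lie far above every oocyte library. Zfp42 was at 7.46 FPKM (5.63 to 9.27) and 13.0 FPKM (10.4 to 15.2), a log2 difference of -0.73. Esrrb was at 18.3 FPKM (16.7 to 20.0) and 31.3 FPKM (29.2 to 33.4), a log2 difference of -0.74. Sall4 lay closest, at 54.2 FPKM (51.3 to 57.3) and 59.4 FPKM (56.4 to 62.5), with bounds that overlap. Its log2 difference was -0.13, but 0.063 once all libraries were rescaled to a common FPKM sum.

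Of the transcripts of the core pair, Pou5f1 went the other way by value, and Sox2 showed no clear direction. Pou5f1 gave 322.1 FPKM (bounds 308.9 to 338.4) for YAP-null against 206.8 FPKM (196.5 to 218.0) for wild type, 1.56-fold higher (log2 difference 0.64, and 0.43 to 0.91 over the alternative settings). Sox2 was at 1.36 FPKM (0.837 to 1.83) and 0.968 FPKM (0.598 to 1.37), and these bounds overlap. Its log2 difference was 0.26, and 0.051 to 0.45 over the alternative settings. A ratio within a library does not depend on its scaling: Nr5a2 stood at 86.5% of the Pou5f1 level in wild type and 28.6% in YAP-null, Tdgf1 at 20.2% and 2.01%, Esrrb at 15.1% and 5.69% and Sall4 at 28.7% and 16.8%. Each of these ratios is divided by the Pou5f1 level, itself 1.56-fold higher in YAP-null, so part of each drop repeats the Pou5f1 difference. The level of Sall4 itself was 91.3% of wild type. In oocytes the Nr5a2 ratio was 2.94% and 9.58% in YAP-null and 4.06% and 8.18% in wild type, all below both embryo ratios. The oocyte ratios of Sall4 (9.11% to 32.1%) and Esrrb (3.33% to 15.6%) spanned their embryo ratios and differed between libraries of a genotype by a larger factor than the embryo ratios did between genotypes. Genes of the oocyte were also higher in the YAP-null 4-cell library. All 10 oocyte markers lay at least 2-fold higher (17.7% of all genes), with a median log2 difference of 3.50. The summed level of these markers was 1425 against 113.5 FPKM, and 7216 to 11283 FPKM over the GV libraries. Their part in the Pou5f1 difference, and in the lower values of other members, was not tested. RefSeq names 5 related sequences of Pou5f1, 2 pseudogenes each of Nanog and Tdgf1 and 1 of Zfp42, none with a line of its own in the tables, so reads shared with them cannot be separated.

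Blood markers differed in part between the embryo libraries, with 7 genes summing to 25.9 FPKM (YAP-null) and 93.7 FPKM (wild type). Hba-a1 was alike in both, at 25.9 and 26.3 FPKM, and made up nearly all of the YAP-null sum. Hba-a2 (0.0668 against 26.02 FPKM), Hbb-b2 (0 against 15.9 FPKM) and Beta-s (0 against 25.2 FPKM) made up the difference, and reads of such near-identical globin genes can be split between them in counting. The other 3 blood markers lay at 0.175 FPKM or less in both. The 7 markers of ovarian stroma and endothelium summed to 15.7 and 28.8 FPKM, of which Pecam1 made up 15.1 and 25.4 FPKM. Of the rest, Col1a1, Col1a2, Col3a1 and Dcn were listed at 0 in YAP-null and lay at 0.325 to 1.604 FPKM in wild type, Vwf was at 0.549 against 0.255 FPKM, and Cdh5 was listed at 0 in both. The granulosa and cumulus markers summed to 1.89 and 1.92 FPKM. Their part in the members' differences was not tested.

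The wider pluripotency network held genes in both directions. Of 36 further genes, 29 were counted at the 4-cell stage, with a median log2 difference of -0.27. By value 18 of the 29 were lower in YAP-null, against 47.8% of all genes. In YAP-null 5 lay 2-fold or more below wild type (9.97% of all genes) and 6 above (17.7%). Tbx3, a T-box factor of naive pluripotency, was among the lower ones, at 7.48 against 27.9 FPKM. The other lower genes, Klf2, Klf5, Utf1 and Sall1, were named after their values were seen. Klf2 was at 69.5 and 167.9 FPKM and Klf5 at 48.6 and 106.02 FPKM (YAP-null first). Utf1 was at 2.37 and 6.005 FPKM and Sall1 at 0.836 and 5.08 FPKM. The highest oocyte level of the 5 lower genes was 1.495 FPKM (Klf2, wild-type GV library 2). Tcl1, an AKT coactivator, was at 446.4 and 11.3 FPKM, the homeobox gene Gbx2 at 12.4 and 2.21 FPKM and Zfp57, a zinc finger gene that protects imprints, at 56.2 and 15.8 FPKM, all higher in YAP-null. Tcl1, Gbx2 and Zfp57 were at 88.1 FPKM or more in each GV library. The other 3 higher genes, named after their values were seen, had oocyte levels of 91.9 to 134.3 FPKM (Thap11), 33.1 to 124.7 FPKM (Dnmt3l) and 17.9 to 25.4 FPKM (Il6st). The most abundant of the list, Dppa3 and Dppa2, were at 1440 and 1625 FPKM and at 289.0 and 483.9 FPKM. From oocyte to embryo 16 of 29 tested genes of the list rose and 6 fell in the limma test, against 28.2% and 27.8% of all genes, among them Dppa2 (3.22 ± 0.43, adjusted p = 0.00141).

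**Figure D4:**
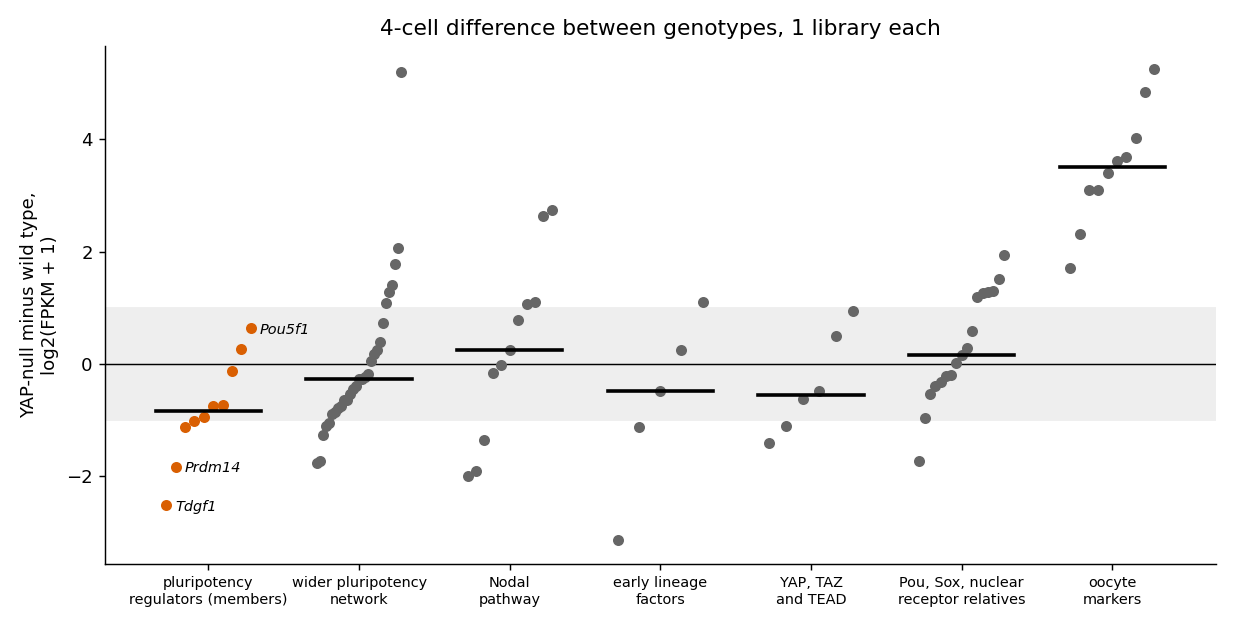
Difference between the YAP-null and wild-type 4-cell libraries on the log2(FPKM + 1) scale (vertical axis) for the members (orange) and genes of 6 other lists (grey), each point 1 gene with a mean of at least 1 FPKM and each bar the list's median; the grey band marks less than 2-fold. The members lie between -2.52 for Tdgf1 and 0.64 for Pou5f1, and the oocyte markers all lie above the band.

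In the Nodal pathway, for which Tdgf1 supplies the co-receptor, the gene Nodal itself was low. Nodal was listed at 0 in every library but the wild-type 4-cell library, where it was at 0.165 FPKM, and the partner factor Foxh1 was likewise above 0 only there, at 2.96 FPKM. Another gene of the list, Gdf1, was at 4.85 FPKM (YAP-null) and 1.81 FPKM (wild type) in embryos. The receptor gene Acvr1b was at 8.39 FPKM (YAP-null) and 0.407 FPKM (wild type). Nodal, Foxh1, Gdf1, Acvr1b and, below, Furin and Pcsk6 were named after their values were seen. Of 20 genes of the pathway 11 were counted, with a median of 0.25. At least 2-fold lower were 3 (9.97% of all genes) and higher 4 (17.7%). The signal transducer Smad3 gave 33.4 against 4.55 FPKM (YAP-null first), and Drap1, a corepressor that binds FOXH1, was 2.23-fold higher by value in YAP-null. Of the higher genes, Smad3 (50.5 to 81.6 FPKM), Drap1 (289.2 to 657.4 FPKM) and Acvr1b (20.5 to 23.4 FPKM) were more abundant in oocytes, while Gdf1 was at 0.582 FPKM or less there. The lower genes besides Foxh1 were Furin (2.38 against 7.59 FPKM, and 21.9 to 176.1 FPKM in oocytes) and Pcsk6 (0.250 against 3.67 FPKM, and 1.77 to 4.51 FPKM in oocytes). Smad2 (5.59 and 4.53 FPKM), the receptor gene Acvr2a (4.81 and 5.49 FPKM) and Smad4 (23.6 and 24.0 FPKM) lay closer together. From oocyte to embryo 2 of 11 genes rose and 6 fell in the limma test, against 28.2% and 27.8% of all genes.

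Early lineage factors were few: 5 of 14 were counted at the 4-cell stage. At least 2-fold lower were 2 (9.97% of all genes) and higher 1 (17.7%). Gata6, a primitive endoderm factor, gave 5.03 against 52.1 FPKM (YAP-null first), Tfap2c, a trophoblast factor, at 72.0 and 100.9 FPKM, and Gata4 at 98.4 and 82.8 FPKM. Of the genes through which YAP acts, Tead4 gave 40.4 against 87.4 FPKM in embryos, compared with 0.197 FPKM or less in oocytes, and it rose between the stages by 5.81 ± 0.34 (limma adjusted p = 0.000141). Wwtr1, which encodes the YAP relative TAZ, was at 15.1 and 21.4 FPKM and Tead2 at 6.85 and 4.56 FPKM. Among 25 relatives of the members' families, 17 were counted, with a median of 0.17. Of these, 1 was at least 2-fold lower (9.97% of all genes) and 6 were higher (17.7%). Sox15, a Sox gene, was at 77.5 and 151.3 FPKM, far above Sox2 in both 4-cell libraries, and the zinc finger gene Yy1 at 108.5 and 124.1 FPKM. Ubp1, a relative of Tfcp2l1, was at 98.1 and 40.1 FPKM and the orphan receptor gene Nr6a1 at 38.1 and 14.98 FPKM.

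The genes most like Pou5f1 over the 6 libraries, by Euclidean distance of log2(FPKM + 1), were Calm2 (distance 0.57), Arpc3 (0.57) and Klf17 (0.80). Klf17, a Krüppel-like factor gene, also was high in the GV libraries numbered 1 (322.4 and 302.5 FPKM) and low in those numbered 2 (148.2 and 154.6 FPKM), but at the 4-cell stage it was at 290.0 FPKM (YAP-null) and 348.0 FPKM (wild type). Nearest to Tdgf1 were Gata6 (0.66), Foxa1 (0.89) and Hk1 (0.97). Foxa1 was at 9.53 and 37.2 FPKM and Hk1 at 6.69 and 27.2 FPKM in the YAP-null and wild-type 4-cell libraries, and both were at 0.418 FPKM or less in every oocyte library.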

How the data were processed

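RNA of 6 libraries was sequenced from paired ends. The authors deposited 1 gene table per library, whose FPKM values and bounds are fragments scaled by transcript length and mapped fragments, per the file headers. CASAVA 1.8, TopHat and the mm9 build are named, with no roles, per the submitters' processing notes. No source here names the quantification tool. Dropping 1 failed line left 23308 symbols, and 260 symbols at several loci were summed. Positions were converted to count from 1.

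Values were compared as log2(FPKM + 1) for genes averaging 1 FPKM or more, using limma 3.58.1 with its trend option in R 4.3.3; tests were two-sided and called at 0.05 after Benjamini-Hochberg adjustment over all genes. GV genotypes were fitted on 4 libraries without a replicate block and stage on 6 libraries with a genotype term. The scripts were tested on simulated data. Members were taken by symbol. From 3 lists the 4 largest 4-cell differences at 5 FPKM or more and the 2 highest levels were named, from 2 further lists the 4 highest levels, and for Pou5f1 and Tdgf1 the 3 nearest genes. The members and lists were chosen with earlier results of these data known. Alternatives covered pseudocount, filter, scaling, summing of loci and each library left out.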

Additional observations from a re-analysis of the deposited data

How the results depend on the processing

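In GV oocytes 0 genes passed limma. With the replicate block (library number as a term) 2 genes passed, neither a member, and without 1 library 2 to 7 passed. The numbers are not known to mark shared animals or days, although deviations of same-numbered libraries from their group means correlated at 0.85 across 10462 genes. The members' GV differences changed sign without 1 library: they ran from -0.48 to 0.40 for Pou5f1, -0.36 to 0.55 for Sall4, -0.80 to 0.53 for Esrrb and -0.55 to 0.27 for Nr5a2, and Sall4 was at -0.052 with each library rescaled to the same FPKM sum.

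In the stage test genes called higher ran from 1650 to 3182 and lower from 1315 to 3171 without 1 library, the lowest without the wild-type 4-cell library (2115 and 2100 without the YAP-null 4-cell library), against 3228 and 3180. Members called higher numbered 3 to 5 without 1 library and 2 at a mean of at least 5 FPKM, where fewer members were tested. Pou5f1 ran from -0.085 (without the YAP-null 4-cell library) to 0.59. Nr5a2, Tdgf1, Nanog and Zfp42 passed in every alternative that tested them.

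At the 4-cell stage 1082 genes lay 2-fold lower and 1925 higher. These were 441 and 834 with a pseudocount of 5 FPKM, 640 and 1083 among genes averaging 5 FPKM or more, and 201 and 495 at 4-fold. Members at least 2-fold lower numbered 4, but 1 with a pseudocount of 5 FPKM (Tdgf1), 2 at a mean of at least 5 FPKM, 2 with rescaled sums and 1 at 4-fold. They numbered 5 with median-ratio scaling, where Nr5a2 (-1.15) joined them. The 2 scalings each apply 1 factor to a whole library, and so move all genes in 1 direction. For median-ratio scaling the factors were 1.08 (YAP-null 4-cell) and 0.936 (wild-type 4-cell). The other alternatives also follow from how they are built. Rescaled sums moved the median of all genes from 0.051 to 0.23 and median-ratio scaling to -0.14, and the share higher among genes 2-fold apart from 64.0% to 75.6% and 50.2% (53.1% with quantile normalization). The members' median was -0.65, -1.05 and -0.86 under these 3 scalings. By the ratio of deposited FPKM values, an alternative added after the data were seen, which leaves Prdm14 out, 3 members lay 2-fold lower. Depth limits low members: in oocytes the deposited bounds of Zfp42 ran from 0 to 1.09 FPKM around 0.600 FPKM in YAP-null library 1.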
